A study of Mus musculus with 6 samples.

Results

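Transcripts of 39 genes for lysosomal proteins were followed by RNA sequencing in the mouse embryonic fibroblast line NIH3T3. The genes were taken by symbol from a list of hydrolases, their cofactor, membrane proteins and 1 transcription factor. All 39 were found among the 35275 genes of the count table. Wild-type cells gave 3 libraries, and cells labelled NgBR overexpression gave 3. NgBR is the Nogo-B receptor, encoded by Nus1, a subunit of the enzyme that makes the long lipid on which N-linked sugar chains are built. Per the labels' protocols, the overexpressing line carried an HA-tagged NgBR plasmid (pIRES) and had been selected with G418, and both lines grew with penicillin, streptomycin and 10% calf serum. Whether that line was 1 clone or a pool, and whether the wild-type cells had been through a selection, is not stated in the labels. Nor do they tie the libraries of a group to separate cultures, and p-values thus speak only of how far these libraries scatter, which may be technical.

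Lysosomes are acidic organelles in which proteins, sugar chains and lipids are broken down. Most of their soluble enzymes are glycoproteins that receive a mannose 6-phosphate tag in the Golgi and are carried by receptors that bind it. Many of their genes share a short promoter element, CLEAR, which is bound by the transcription factor TFEB and its relatives TFE3, MITF and TFEC.

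The wild-type libraries held 29515072 to 35511769 counts and those labelled NgBR overexpression 7369961 to 10358381, so that depth ran with the groups. The libraries numbered 2 stood apart from the other 4 along the second principal component, at -35.0 and -52.0 against values from 5.27 to 38.5, and results are given without both of them where this matters. Nus1 itself, examined as a check of the labels, had 212, 187 and 233 CPM (counts scaled to library size) in the 3 wild-type libraries, and 184, 185 and 165 CPM in the labelled libraries. Its log2 change, the log2 of the fold change from wild type to labelled libraries, was -0.24 (SE 0.21, adjusted p = 0.786 from edgeR's quasi-likelihood fit). Reads from the plasmid may not have been counted at mouse Nus1, so that its level does not decide on the label, and the groups are called by their labels throughout. The 12 fibroblast markers were all expressed, with summed levels of 23092 to 26965 CPM in wild-type and 23812 to 34690 CPM in labelled libraries. edgeR called 0 of them, with 1 lower at an unadjusted p under 0.05, Dcn, which DESeq2 called lower and limma-voom did not. Dcn, the matrix proteoglycan decorin, had 813 ± 111 and 332 ± 144 CPM with separate ranges (log2 change -1.29, SE 0.36, edgeR adjusted p = 0.118).

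Of the 39 genes, 35 had enough reads to be tested, and 1 of them, Ctsk, differed between the groups. It was higher in the libraries labelled NgBR overexpression. At an adjusted p under 0.05, edgeR called 3.39% of all 12651 genes tested, 2.04% higher and 1.35% lower there. None of the 35 was called lower. At an unadjusted p under 0.05, edgeR gave 4 members lower and 1 higher, beside 5.11% and 6.3% of all genes tested, or 11.4% in either direction. DESeq2 and limma-voom each called 1 member, again Ctsk. Most log2 changes were small: the median log2 change of the 35 was -0.27, with quartiles of -0.35 and -0.087, beside a median of -0.011 and quartiles of -0.25 and 0.24 for all genes tested. Of the 35, 28 had a negative log2 change, against 51.3% of all genes tested. The 95% interval of the log2 change lay wholly between a 2-fold decrease and a 2-fold increase for 24 of the 35. The read minimum for a test was 0.502 CPM in at least 3 libraries. Every library reached it for 34 of the 35, while Manba did so through wild type, with 1 labelled library at the minimum, and the 35 are not the whole list.

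**Figure D1:**
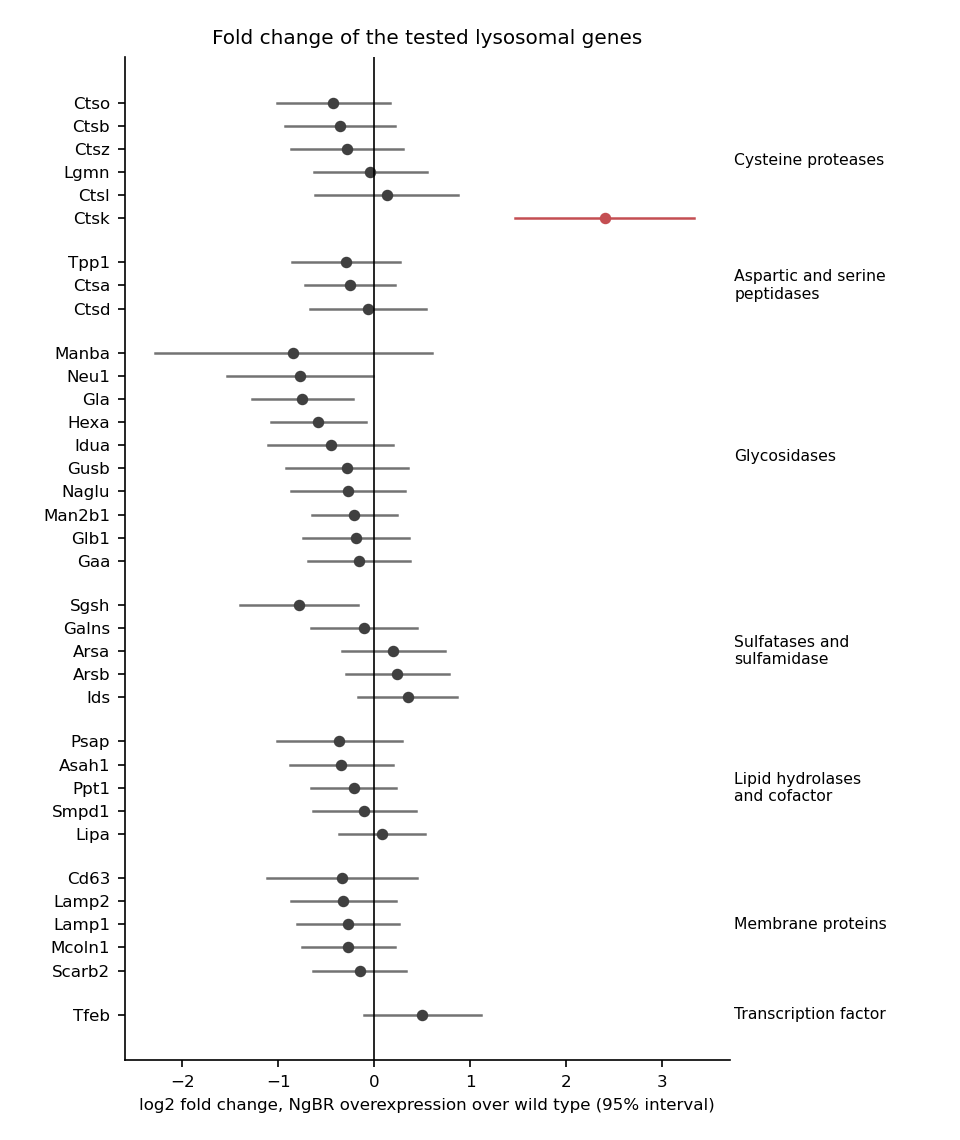
Log2 fold change (x axis, libraries labelled NgBR overexpression over wild type) of the 35 tested lysosomal genes, grouped by role, with 95% intervals from edgeR's quasi-likelihood fit on 3 libraries per group. Ctsk (red) at 2.40 is the only gene with an adjusted p under 0.05, and 28 of the 35 points lie left of 0.

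The lysosomal genes together took 0.544%, 0.537% and 0.598% of the wild-type counts in libraries 1 to 3, and 0.427%, 0.404% and 0.594% of those in the labelled libraries. Labelled library 3 thus lay within the wild-type range and the other two below it. Relative to the wild-type mean of each gene, the median of the 35 tested genes stood at -0.34, -0.25 and -0.15 on the log2 scale in labelled libraries 1 to 3, and within 0.02 of 0 in each wild-type library. The CPM ranges of the groups were separate for 12 of the 35 genes, 10 of them lower in the labelled libraries, where 9.37% of all tested genes lay, and 2 higher, against 9.21%. The 10 were Ctso, Gla, Hexa, Idua, Man2b1, Neu1, Sgsh, Lamp1, Lamp2 and Mcoln1, and the 2 were Ctsk and Tfeb. In bulk RNA, fewer cells that express a gene and less RNA per cell cannot be told apart. The log2 deviations of the 35 genes had Spearman correlations with exonic length between -0.15 and 0.19 in the 6 libraries, as a description over genes that share a library.

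**Figure D2:**
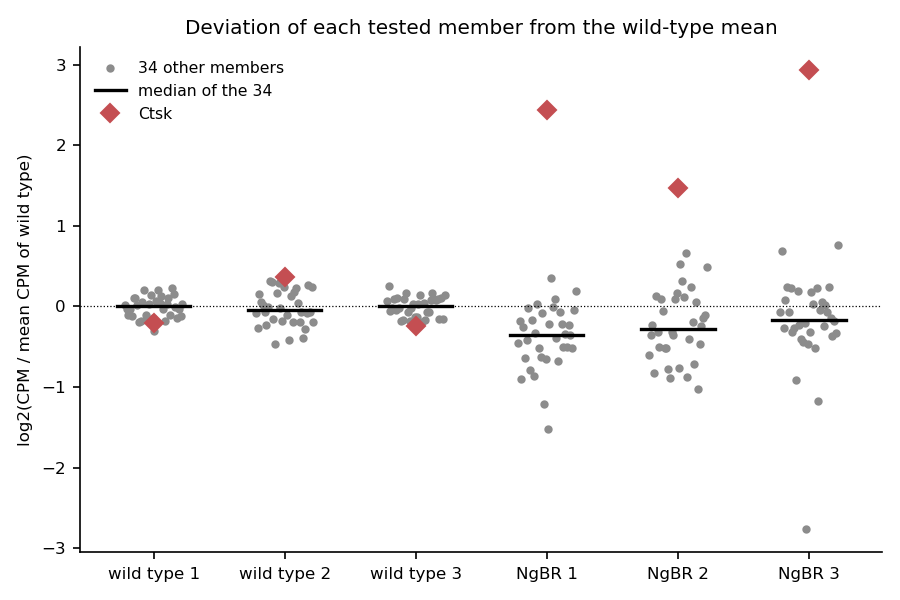
Deviation of each tested gene from its wild-type mean (y axis, log2 of the CPM ratio) in the 6 libraries (x axis). Grey points are the 34 genes other than Ctsk, black bars their median, which lies at -0.35, -0.28 and -0.17 in labelled libraries 1 to 3, and red diamonds are Ctsk, above every other gene in these 3 libraries.

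The cysteine proteases were led in level by Ctsb, Ctsz and Ctsl, general proteases of the lysosome. To compare genes, CPM was divided by the kilobases of exon. Ctsb stood at 98.0 ± 4.73 CPM per kilobase in wild type and 76.4 ± 15.0 in the labelled libraries (SD, n = 3 each). Its CPM values were 598, 562 and 619 in wild type and 433, 390 and 564 in the labelled libraries, so that 2 of these lay well below the wild-type range and 1 just inside it. Ctsl, the most variable of the abundant proteases, was at 460, 389 and 559 CPM and at 415, 368 and 753 CPM. The high value belonged to labelled library 3, and the log2 change of Ctsl, 0.13 (SE 0.33), turned to -0.26 without that library. Ctsz, a carboxypeptidase, and Lgmn, which cuts after asparagine, had log2 changes of -0.29 and -0.041. Ctso, a little-studied relative, was at 13.6 ± 1.30 and 10.0 ± 2.39 CPM, with a log2 change of -0.43. None of these 5 was called.

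Ctsk, which encodes cathepsin K, the collagen-degrading protease best known from osteoclasts, was the exception. It had been singled out with earlier results of these data known. Wild-type libraries 1 to 3 held 1.49, 2.20 and 1.44 CPM of it, and labelled libraries 1 to 3 held 9.26, 4.75 and 13.1 CPM. All 3 labelled libraries lay above all 3 wild-type libraries, with library 3 the highest and library 2 the lowest. Group means came to 1.71 ± 0.423 and 9.03 ± 4.18 CPM (SD, n = 3 each), and the fitted difference was 5.28-fold with a 95% interval of 2.77 to 10.1 (log2 change 2.40, SE 0.41, edgeR adjusted p = 0.0134). The counts behind these levels were 52, 65 and 48 against 66, 48 and 137, at unequal depth. With all libraries thinned to the depth of the shallowest, the log2 change was 2.73 (edgeR adjusted p = 0.0232), and without both libraries numbered 2 it was 2.93 (edgeR adjusted p = 0.00253). The call was lost without wild-type library 1, labelled library 1 or labelled library 3, with edgeR adjusted p = 0.0539, 0.0712 and 0.0568 at log2 changes of 2.31, 2.38 and 2.02.

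Even so, Ctsk remained a minor cathepsin transcript. Per kilobase it stood at 1.13 ± 0.280 in wild type and 5.97 ± 2.76 in the labelled libraries, below Ctsb, Ctsz, Ctsl and Lgmn in both groups. It took 0.118%, 0.188% and 0.104% of the summed CPM of the cysteine proteases in wild-type libraries and 0.912%, 0.518% and 0.841% in the labelled ones. In each labelled library its deviation from the wild-type mean exceeded that of all 34 other tested members, while 33, 0 and 34 of them lay above it in wild-type libraries 1 to 3.

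**Figure D3:**
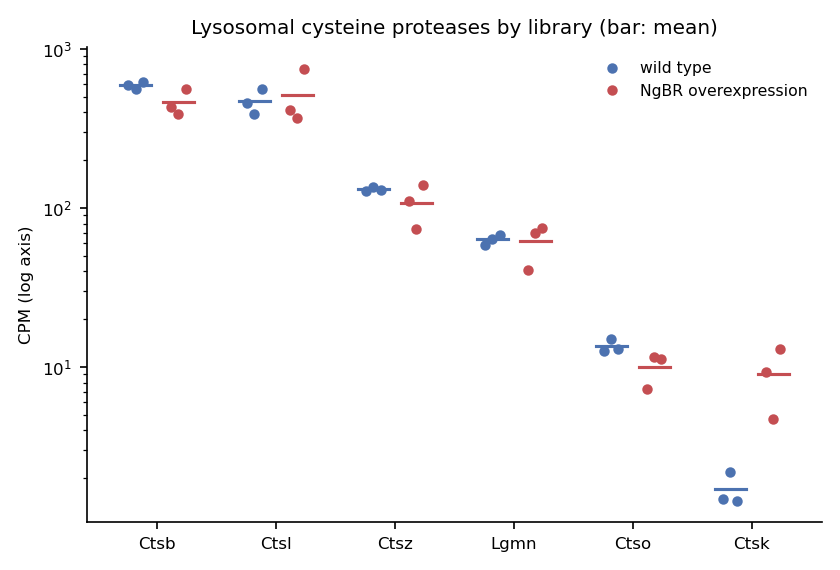
CPM (y axis, log scale) of the 6 tested cysteine proteases in each wild-type (blue) and labelled NgBR overexpression (red) library, with bars at the mean of 3 libraries. The points of the groups are separate and higher for Ctsk, 1.44 to 2.20 against 4.75 to 13.1 CPM, separate and lower for Ctso, and overlap for the other 4.

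Ctsk (ENSMUSG00000028111) lies on mouse chromosome 3 at positions 95499256 to 95509362 of GRCm38 (mm10), on the plus strand, as a protein-coding gene with 1512 bases of exon that overlap no exon of another gene in the GENCODE annotation. The next gene downstream is Ctss, the cathepsin of antigen-presenting cells, at 95526786 to 95556403, and Ctss had 1 count over all 6 libraries. The upstream neighbour Arnt, a partner of hypoxia-inducible factors named here for its position, was at 152 ± 11.9 and 144 ± 44.3 CPM. Because Ctsk was the member that differed, the 250 bases before its RefSeq start are shown (RefSeq, GRCm38.p6, plus strand, chr3:95498960-95499209), with no base in capitals since none of the elements searched for, named with the promoters further on, occurs in it.
Ctsk: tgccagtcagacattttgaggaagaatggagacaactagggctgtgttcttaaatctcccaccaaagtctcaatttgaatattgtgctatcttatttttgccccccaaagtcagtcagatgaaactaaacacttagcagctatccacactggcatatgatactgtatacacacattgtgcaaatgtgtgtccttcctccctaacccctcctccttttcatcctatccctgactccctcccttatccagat
This stretch has a G+C content of 43.2% and 0 CG dinucleotides. Over the 35 lysosomal genes with a promoter in the RefSeq table, the medians were 58.0% and 9, and among the 32 of these that were tested only Ctso, at 42.0%, had a lower G+C content.

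The other cathepsins of the list were close to silent. Ctsc, which activates granule proteases of immune cells, the aminopeptidase Ctsh and Ctss each had 1 count in all of wild type and 0 in the labelled group. Counts this low lie under the floor of 3 counts per group, which corresponds to 0.0307 CPM in wild type and 0.108 CPM in the labelled group, and allow no fold. Ctsf had 7, 3 and 5 counts in wild type and 0 in every labelled library, at least 1.42-fold lower against that floor. This bound takes the wild-type counts as exact. It allows for counting error in the labelled group alone and for no other scatter.

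Markers of the cell types known for Ctsk or Ctss were examined beside these values. Of 10 osteoclast markers, 4 were tested. Their summed level was 46.6 to 52.1 CPM in wild type and 49.0 to 75.8 CPM in the labelled libraries, and within it Nfatc1, a factor also used by other cells, had 29.6 ± 5.89 and 33.0 ± 6.29 CPM. The defining genes were at or near 0: Ocstamp had 0 counts in all 6 libraries, Calcr and Dcstamp had 0 in the labelled libraries, and Acp5 had 0, 0 and 5 counts there. One marker of the list was called, Tnfrsf11a, the receptor for the osteoclast cytokine RANKL, at 0.659, 0.711 and 0.241 CPM in wild type and 2.53, 4.75 and 2.58 CPM in the labelled libraries. The log2 change of Tnfrsf11a was 2.61 (SE 0.51, edgeR adjusted p = 0.0246), and it reached the read minimum through the labelled libraries, where it was high. It was no longer called when wild-type library 1 or 3 or any 1 labelled library was left out, with edgeR adjusted p between 0.0617 and 0.0879, nor without both libraries numbered 2 (0.0514) or with thinning (0.0781). At an unadjusted edgeR p under 0.05, 2 of the 4 tested markers were higher, Tnfrsf11a and Itgb3, and 1 lower, Mmp9. All had separate ranges. Among all genes tested, 6.3% were higher and 5.11% lower at that p. Itgb3 was at 7.24 ± 0.579 and 19.2 ± 10.6 CPM (log2 change 1.41, edgeR adjusted p = 0.0883). Mmp9 was at 12.1 ± 3.42 and 5.90 ± 0.409 CPM (log2 change -1.03, edgeR adjusted p = 0.110). DESeq2 called Itgb3 higher and Mmp9 lower as well, both also expressed by other cells, and limma-voom called Tnfrsf11a alone. The 12 macrophage markers summed to 14.0 to 15.2 CPM in wild type and 9.40 to 12.9 CPM in the labelled libraries, and C1qa had 0 counts in all 6. edgeR called 0 of the 3 tested macrophage markers, with 0 at an unadjusted p under 0.05, and DESeq2 and limma-voom also called 0. Epithelial markers summed to 0.143 to 0.338 CPM in wild type and 0.297 to 0.982 CPM in the labelled group, and none of the 7 reached the read minimum. Endothelial markers were low. Their sums were separate and higher, at 1.93 to 2.58 CPM in wild type and 3.15 to 4.21 CPM in the labelled group. Of the 6, only Vwf was tested. It was not called, and its ranges overlapped, at 1.23 to 1.63 CPM and 1.05 to 3.37 CPM. Only Cdh5 had separate ranges, at 0.0903 to 0.169 CPM in wild type and 0.478 to 0.594 CPM in the labelled libraries. These stood on 5, 5 and 3 counts against 4, 6 and 5, at unequal depth. The means of Tek and Kdr were lower in the labelled group and those of Pecam1 and Emcn higher, all with overlapping ranges. The part of other cell types, or of depth, in the value of Ctsk was not tested beyond these measurements.

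Peptidases with an aspartate or serine in the active site showed no called difference in edgeR, DESeq2 or limma-voom, and 0 of the 3 had an unadjusted edgeR p under 0.05. Ctsd, the main aspartic protease of the lysosome, was at 380, 301 and 381 CPM in wild type and 350, 249 and 415 CPM in the labelled libraries, with overlapping ranges. Per kilobase it reached 151 ± 19.6 and 144 ± 35.6, the fourth highest member in wild type. In the annotation, 34.4% of the exonic bases of Ctsd also belong to another protein-coding gene on the same strand, which the count table does not list. Ctsa, a carboxypeptidase that protects the enzymes of Glb1 and Neu1, and Tpp1, which removes tripeptides, had log2 changes of -0.26 and -0.29.

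Among the glycosidases, all 10 tested genes had negative log2 changes, from -0.85 to -0.16 with a median of -0.37, and none was called. The edgeR count at an unadjusted p under 0.05 was 3, and DESeq2 and limma-voom called 0. The summed level of the group was 553, 669 and 556 CPM in wild-type libraries and 476, 477 and 475 CPM in the labelled ones, so that all 3 labelled libraries lay below the wild-type range and close to each other. Gla, the alpha-galactosidase deficient in Fabry disease, was at 45.5, 63.5 and 46.1 CPM in wild type and 28.5, 36.1 and 27.4 CPM in the labelled libraries, with separate ranges. The log2 change of Gla was -0.75 (SE 0.23, 95% interval -1.28 to -0.23, edgeR adjusted p = 0.172).

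Hexa encodes the alpha subunit of beta-hexosaminidase, which clears the ganglioside stored in Tay-Sachs disease. Its transcript was at 94.2, 114 and 96.8 CPM in wild type and 71.3, 54.8 and 77.2 CPM in the labelled libraries. Here too the ranges were separate, with a log2 change of -0.59 (SE 0.22, edgeR adjusted p = 0.304).

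Neu1, the lysosomal sialidase, was at 12.4, 19.6 and 14.0 CPM in wild type and 5.33, 9.00 and 12.3 CPM in the labelled libraries, the last of them just under the lowest wild-type value. The log2 change was -0.78 (SE 0.34, edgeR adjusted p = 0.425). Manba, the beta-mannosidase, had the most negative value of the uncalled members, -0.85 (SE 0.64, edgeR adjusted p = 0.741). It rested on 25, 17 and 22 counts in wild type and 2, 7 and 1 in the labelled libraries, so that the precision was low. Its value moved to -1.88 without labelled library 2, to -0.36 without labelled library 3 and to -1.97 without both libraries numbered 2, and it was not tested when any 1 wild-type library was left out. Gaa, which degrades glycogen, and Hexa were the highest of the group in wild type, at 50.1 ± 10.4 and 51.0 ± 5.47 CPM per kilobase, and did not differ beyond their spread. With the longest transcript in place of all exons Gaa led with 66.0. Idua, Naglu and Gusb, which act on glycosaminoglycan chains, Man2b1, which trims mannose, and Glb1, the beta-galactosidase, had log2 changes between -0.45 and -0.19.

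The sulfate-removing enzymes did not share a direction. Ids, Arsb and Arsa had positive log2 changes of 0.35, 0.24 and 0.20, and Galns and Sgsh negative ones of -0.11 and -0.78. All of them but Arsa act on glycosaminoglycan chains. None was called by edgeR, DESeq2 or limma-voom, and 1, Sgsh, had an unadjusted edgeR p under 0.05. Sgsh, the heparan N-sulfatase, was at 16.5, 19.2 and 15.0 CPM in wild type and 12.9, 9.20 and 7.45 CPM in the labelled libraries, with separate ranges (log2 change -0.78, SE 0.27, edgeR adjusted p = 0.246). Ids, the iduronate sulfatase, acts on the same heparan sulfate chains. Its levels were 67.3, 53.7 and 63.5 CPM in wild type and 65.5, 97.3 and 72.2 CPM in the labelled libraries, which overlapped. Arsa, which cleaves sulfatide, was the highest of the group per kilobase, at 19.9 ± 1.29 and 22.8 ± 5.80. No source used here gives the strand setting of the counting, and 21.6% of the exonic bases of Sgsh, 32.3% of those of Arsb and 18.8% of those of Arsa lie opposite exons of another gene. The same limit holds for members of other groups, among them Ctsl with 27%, Ctsb with 12.8% and Hexa with 12.8%.

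Lipid-degrading enzymes and their cofactor showed no called difference. Psap, the precursor of the saposins that present lipids to these enzymes, was the most abundant member per kilobase in wild type, at 326 ± 34.1, and had 253 ± 68.6 in the labelled libraries. It was at 831, 849 and 1002 CPM in wild type and at 631, 547 and 907 CPM in the labelled libraries. Labelled library 3 lay within the wild-type range, and the log2 change was -0.36 (SE 0.29, edgeR adjusted p = 0.756). Asah1, the acid ceramidase, Ppt1, a thioesterase, and Smpd1, the acid sphingomyelinase, had log2 changes of -0.35, -0.22 and -0.11. Lipa, the acid lipase of cholesteryl esters, was at 0.080. edgeR called 0 of these 5, with 0 at an unadjusted p under 0.05, and DESeq2 and limma-voom called 0.

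All 5 membrane protein genes had negative log2 changes, from -0.34 to -0.15, and none was called by the 3 tools or passed an unadjusted p of 0.05 in edgeR. Lamp1, a main glycoprotein of the lysosomal membrane, was at 489, 466 and 524 CPM in wild type and 420, 356 and 445 CPM in the labelled libraries. The ranges were separate, but the log2 change of -0.28 (SE 0.24, edgeR adjusted p = 0.777) did not exceed its error by much. Lamp2, its relative and a receptor of chaperone-mediated autophagy, was at 404, 537 and 401 CPM and at 350, 377 and 346 CPM, again separate. Cd63, a tetraspanin, varied most, from 533 to 719 CPM in wild type and from 317 to 760 CPM in the labelled libraries. Mcoln1, the calcium channel mucolipin, and Scarb2, which carries glucocerebrosidase, had log2 changes of -0.27 and -0.15. Per kilobase Lamp1 and Cd63 stood at 184 ± 10.8 and 175 ± 26.8 in wild type, next to each other within their spread, and with the longest transcript in place of all exons Cd63 led with 223.

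**Figure D4:**
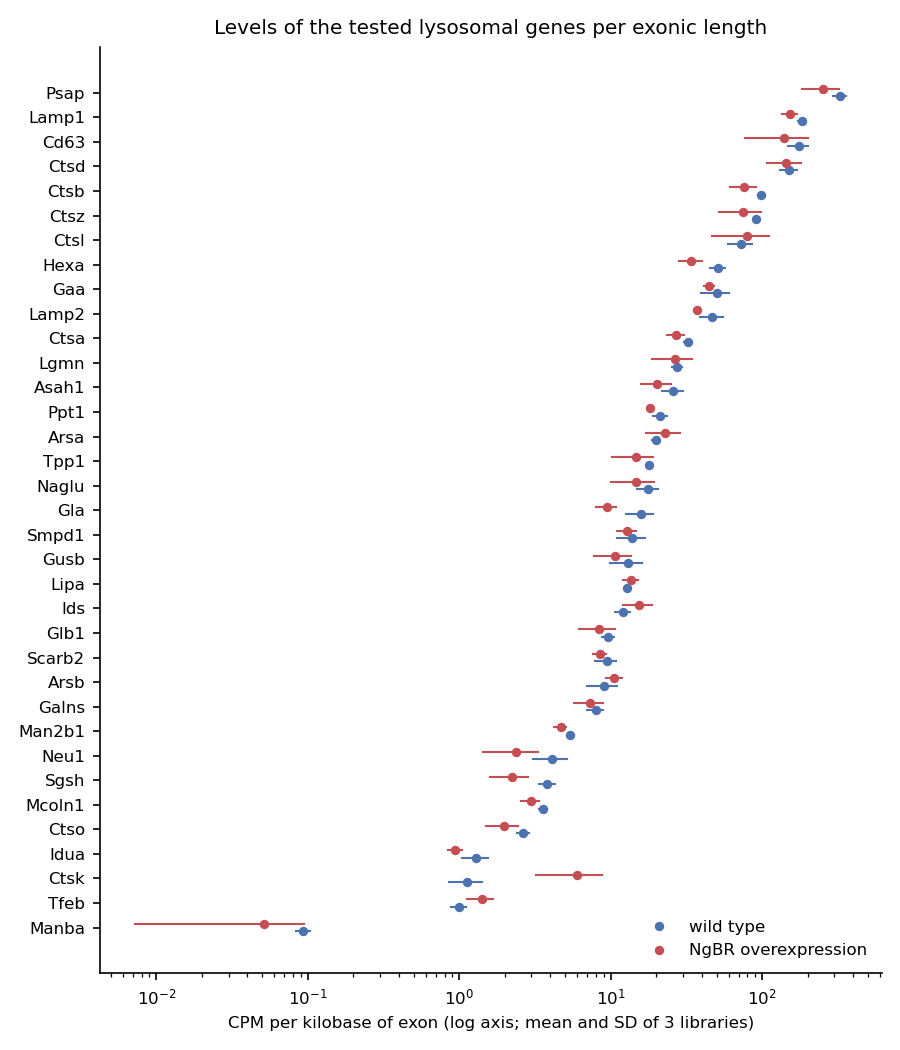
Level of the 35 tested lysosomal genes (x axis, CPM per kilobase of exon, log scale) as mean and SD of 3 wild-type (blue) and 3 labelled NgBR overexpression (red) libraries, ordered by the wild-type mean. Psap leads at 326 in wild type, Ctsk moves from 1.13 to 5.97, and most other pairs lie close together.

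Tfeb, the transcription factor of the list, was at 5.76, 4.94 and 6.26 CPM in wild type and 6.46, 7.92 and 9.55 CPM in the labelled libraries. The ranges were separate by a narrow margin, with the largest positive value among the uncalled members, 0.50 (SE 0.27, 95% interval -0.11 to 1.11, edgeR adjusted p = 0.562). Its direction was opposite to that of most of the enzyme genes, and neither was a called change. Of its relatives, Tfe3 was at 80.5 ± 6.55 and 83.2 ± 6.61 CPM, and Mitf at 59.8 ± 27.9 and 49.9 ± 39.6 CPM, both named for their family.

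Tfec, the relative with the lowest level, was called higher. Wild-type libraries 1 to 3 held 0.544, 0.271 and 0.632 CPM of it, and the labelled libraries 5.89, 1.88 and 4.97 CPM. As with Ctsk, every labelled library lay above the wild-type range, and library 2 was the lowest of the 3. The log2 change of Tfec was 3.10 (SE 0.54, edgeR adjusted p = 0.0136), on counts of 19, 8 and 21 against 42, 19 and 52. The call was lost without labelled library 1 or 3 (edgeR adjusted p = 0.0797 and 0.065).

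Because TFEB and its relatives bind E-boxes, the promoters of the listed genes were searched for such letters. Many lysosomal genes are known to share CLEAR, so that a high share in this list is no independent finding. The RefSeq table (GRCm38.p6) gave 250 bases before and 50 after the start for 35 of the 39 genes. The core CACGTG, a palindrome and thus the same on both strands, was present in 13 of these 35 (37.1%), namely Arsa, Ctsa, Ctsd, Ctsf, Ctsl, Gaa, Gla, Glb1, Lamp1, Lgmn, Mcoln1, Naglu and Sgsh. It occurred in 8.09% of 27025 genes in the table and in 11.7% of the 9115 that were also tested here. The longer TCACGTGA, which contains the core, was in 4 of 35 against 1.12% of all genes, and the same letters with a further G before and C after in 0 of 35 against 0.370%. TCATGTGA, the M-box searched on both strands, was in Ctss, Gla, Ppt1 and Tpp1, against 1.15% of all genes and 0.834% of the tested ones. The windows of 30 bases around the match are shown for the 4 genes with TCACGTGA, and for Lamp1 and Ctsl as abundant genes with the core alone, 5′ to 3′ on the strand of the gene, with the match in capitals.
Ctsa: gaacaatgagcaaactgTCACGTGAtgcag
Ctsd: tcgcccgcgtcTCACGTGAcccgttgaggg
Gla: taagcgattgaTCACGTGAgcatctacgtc
Mcoln1: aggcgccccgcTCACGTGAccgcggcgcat
Lamp1: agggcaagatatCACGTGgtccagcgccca
Ctsl: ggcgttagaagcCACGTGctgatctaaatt
The windows lie at chr2:164833743-164833772 (plus), chr7:142387908-142387937 (minus), chrX:134601215-134601244 (minus), chr8:3500462-3500491 (plus), chr8:13159088-13159117 (plus) and chr13:64370739-64370768 (minus) of GRCm38.p6. The match began 13, 99, 228, 46, 61 and 236 bases before the RefSeq start. The windows of Ctsa, Ctsd, Mcoln1 and Ctsl lie within the gene as GENCODE places it, since the starts of the annotations differ. The 12 tested genes with the core had a median log2 change of -0.22, ranging from -0.78 to 0.20. For the 20 tested genes without it the median was -0.29, ranging from -0.85 to 2.40. The range of the 12 thus lay within that of the 20, and the difference was not tested. A match is a description of letters and does not show binding.

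The rest of the pathway was examined in 7 lists, of which 124 genes were tested. Of these, 1 was called higher, Tfec, and 5 lower, against 2.04% and 1.35% of all genes tested, and the median log2 change was -0.14. The lists were drawn up with earlier results of these data known, the decrease of Serpina3g among them. These counts are therefore no test of the lists. Each of the 5 that fell came from a different list. All 5 had separate ranges between the groups, which adds no support to calls made on the same libraries. Of the 124, 25 had separate ranges that were lower in the labelled libraries and 3 that were higher, against 9.37% and 9.21% of all genes tested. Sort1, Optn and Serpina3g reached the read minimum in all 3 libraries of wild type alone, and Tfec in all 3 of the labelled group alone, so that each was tested through the group in which it was high. Atp6v0e2 and Rragd reached it in every library.

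Of the sorting genes, 1 fell. This was Sort1, which encodes sortilin, a sorting receptor that carries some lysosomal proteins without the mannose 6-phosphate tag. Sort1 fell from 10.1, 7.28 and 8.46 CPM in wild-type libraries to 0.140, 0.396 and 0.287 CPM in the labelled ones. These stood on 351, 215 and 281 counts against 1, 4 and 3. The log2 change of Sort1 was -4.88 (SE 0.42, edgeR adjusted p = 0.000582), a 29.5-fold difference. None of the other 17 sorting genes was called. The mannose 6-phosphate receptors M6pr and Igf2r, named for their role, were at 163 ± 27.2 and 138 ± 9.40 CPM and at 485 ± 137 and 372 ± 187 CPM. Gnptab, which starts the tag, was at 63.4 ± 3.96 and 45.3 ± 4.23 CPM (log2 change -0.48, edgeR adjusted p = 0.376).

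Of 18 tested subunits of the proton pump (V-ATPase), 17 had negative log2 changes with a median of -0.23, and 1 fell. This was Atp6v0e2, one of a pair of genes for the small e subunit, from 11.2, 6.73 and 9.60 CPM to 1.26, 1.98 and 2.29 CPM (log2 change -2.29, SE 0.35, edgeR adjusted p = 0.00707). Every labelled library lay below every wild-type library. The other gene of the pair, Atp6v0e, was at 58.9, 32.4 and 57.1 CPM and at 40.6, 28.3 and 69.0 CPM, with overlapping ranges (log2 change -0.11, edgeR adjusted p = 0.969). The difference between the pair was not tested.

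Rragd, a GTPase of the nutrient-sensing complex that helps to keep TFEB in the cytoplasm, fell from 4.87, 9.00 and 4.94 CPM to 1.12, 1.58 and 1.43 CPM (log2 change -2.16, SE 0.38, edgeR adjusted p = 0.0154). The call was lost without labelled library 1 or 3 (edgeR adjusted p = 0.0862 and 0.0677). Together with Tfec it made up the called part of the 19 tested TFEB relatives and controls, whose median log2 change was 0.038. Among 21 tested autophagy genes, which deliver cargo to the lysosome, 1 was called by edgeR. This was Optn, a receptor for ubiquitin-marked cargo, which fell from 3.84, 7.65 and 3.37 CPM to 0.140, 0.396 and 0.382 CPM. The log2 change was -3.92 (SE 0.55, edgeR adjusted p = 0.00469). It rested on 134, 226 and 112 counts against 1, 4 and 4, so that its size is uncertain. The list median was -0.19, and DESeq2 also called Map1lc3a lower.

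Serpina3g, a serpin that inhibits cathepsins, fell from 39.3, 32.7 and 29.8 CPM to 1.12, 0.495 and 0.669 CPM. The counts were 1372, 966 and 991 against 8, 5 and 7 (log2 change -5.52, SE 0.35, edgeR adjusted p = 0.000235). The decrease of Serpina3g was among the results already known when the list was drawn up. Of the 9 inhibitors in that list 4 were tested, and Cst3, the secreted cystatin C, was at 199 ± 49.4 and 178 ± 61.2 CPM.

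The remaining lists held no called gene in edgeR. Of 23 further lumenal proteins, 14 had negative values, with a median of -0.068, and 2 higher and 3 lower at an unadjusted p under 0.05. DESeq2 and limma-voom called 0 of them. Of 21 further membrane proteins, 15 had negative values, with a median of -0.16, and 0 higher and 3 lower at an unadjusted p under 0.05. DESeq2 called 1 lower, the iron transporter Slc11a2, and limma-voom 0. Laptm4a, the most abundant of these, was at 471 ± 94.4 and 421 ± 139 CPM.

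**Figure D5:**
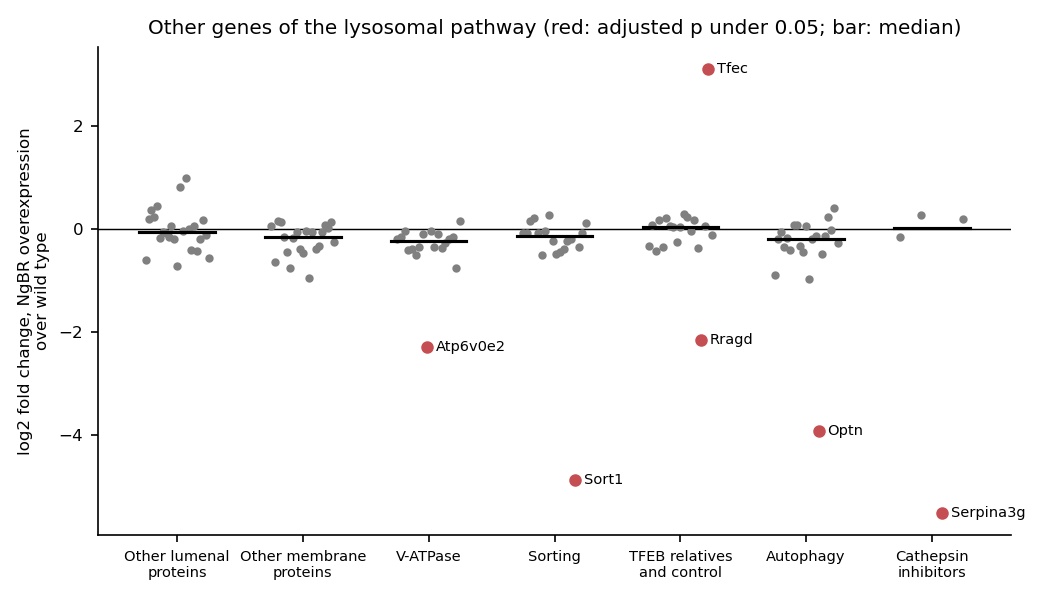
Log2 fold change (y axis, libraries labelled NgBR overexpression over wild type) of 124 tested genes in 7 lists around the lysosome (x axis), with bars at each list's median. The 6 called genes are red and named, Tfec at 3.10 and Serpina3g at -5.52 being the extremes, and the list medians lie between -0.23 and 0.038.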

How the data were processed

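The table deposited by the authors holds read counts by gene, in whole numbers and without normalization. HISAT2 2.0.5, featureCounts 1.5.0-p3 and build mm10 are named in the submitters' processing notes, while the sources used here give neither annotation nor strand setting. Per the labels' protocols, libraries were made from 1.5 micrograms of total RNA with a SMARTer mRNA-seq kit.

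Genes kept by filterByExpr with the group (12651 of 35275) went into edgeR 4.0.16 (R 4.3.3) and its quasi-likelihood F test, with TMM factors, no covariate and Benjamini-Hochberg adjustment over all genes tested. Calls needed an adjusted p under 0.05. CPM used TMM-scaled library sizes. Exonic lengths and positions came from GENCODE M21, which held 97.8% of the identifiers, and promoters from RefSeq. For groups at 0, bounds used 3 counts per group. The scripts were tested on simulated data.

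The lysosomal genes and all lists were chosen with earlier results of these data known. Named besides all listed genes were Nus1 and, per pathway list, up to 4 called genes whose mean reached 1 CPM, or else the most abundant. The others, such as the receptors and Atp6v0e, were named after their values were seen. Some results are not reported here. Protein sequences were not analysed here. Alternatives were DESeq2 1.42.0, limma-voom (limma 3.58.1), other scaling factors, filters, thinning, offsets for length and GC content (mgcv), a replicate block and omitted libraries.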

Additional observations from a re-analysis of the deposited data

How the results depend on the processing

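Across 18 alternatives, the sign of the log2 change was kept in 613 of 625 results for the tested lysosomal genes (Manba was not tested in 5), and 27 genes kept it throughout. Ctsk stayed positive and was called in all alternatives other than the 3 omitted libraries named with it, and no other member was called in any. The median of the members ranged from -0.33 to -0.21. The number of members called was 0 to 1 with 1 library left out.

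Genes with values near 0 turned sign. These were Galns with thinning (0.015) and, without both libraries numbered 2, Ctsd (0.0048) and Arsa (-0.057). With 1 library left out, the values ranged from -0.26 to 0.31 for Ctsl, -0.21 to 0.18 for Lgmn, -0.24 to 0.11 for Ctsd, -0.24 to 0.024 for Gaa, -0.0098 to 0.36 for Arsa, -0.25 to 0.057 for Galns, -0.010 to 0.14 for Lipa and -0.27 to 0.036 for Smpd1. The cause was not tested.

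The number of genes called, 429 by edgeR, was 719 with DESeq2 and 688 without a filter on low counts, and 225 to 374 with 1 library left out (wild-type library 1 gave 250, labelled library 1 gave 225 and labelled library 3 gave 274). With the replicate number as a block it was 719, and the log2 change of Ctsk was 2.33 (edgeR adjusted p = 0.00294). Deviations of same-numbered libraries correlated at 0.015, 0.34 and 0.43. For numbers 2 and 3 the same-numbered library was the best match, while wild-type library 1 correlated best with labelled library 3. Whether the numbers pair the libraries was left undecided, and the main fit used no block. Depth limits the labelled group most, where 3 counts correspond to 0.287 to 0.421 CPM per library.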
